A study of Mus musculus with 6 samples.

Results

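The genes described here are 8 genes that shape the nucleus and its condensed chromatin, out of 52143 genes in the table. They were taken by name on the main chromosomes: the lamins Lmna, Lmnb1 and Lmnb2, the lamin B receptor Lbr, the heterochromatin protein 1 (HP1) genes Cbx1, Cbx3 and Cbx5, and the linker histone H1f0. All 8 were in the table, and 7 of them, all but Lmnb1, passed the filter on low counts. RNA was sequenced from rod photoreceptors of mouse pups in 2 groups of 3 libraries. On postnatal day 0 plasmids were brought into the retina by in vivo electroporation, and on postnatal day 10 rods with EGFP were flow-sorted. Control pups received the scrambled short hairpin RNA (shRNA) vector pLKO.1-Scrambled and the other pups 1 shRNA clone directed at Jun (0.4 µl of 2.5 µg/µl in each case). In both groups the vector Nrlp-EGFP (0.4 µl of 1.5 µg/µl) was given too, in which the Nrl promoter, active in rods, drives EGFP. Strain, litters and pooling are not given in the sources used here, so p-values measure only the spread between these libraries, which may be partly technical.

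As background, most nuclei keep their heterochromatin at the rim, held to the nuclear lamina by tethers of which the best known are Lbr and the A-type lamins made by Lmna. Rods of nocturnal mammals such as the mouse are an exception. While they mature after birth, both tethers are lost and the heterochromatin gathers in the centre of the nucleus, where HP1 proteins bind methylated histone H3 and linker histones compact the fibre. Postnatal day 10 falls within this remodelling.

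Jun, the target of the shRNA (ENSMUSG00000052684, chromosome 4, 95049034 to 95052222), stood at 6.47, 5.85 and 7.16 CPM (counts relative to library size, TMM-normalised, the unit of all gene levels below unless another is named) in control libraries 1 to 3. The libraries labelled Jun knockdown 1 to 3 had 1.84, 17.6 and 19.3 CPM. Jun was thus lower in 1 of these libraries and higher in the other two, and it did not pass the test (log2 fold change 0.99, SE 1.44, adjusted p = 0.764, edgeR's quasi-likelihood test with Benjamini-Hochberg adjustment, the test used for all genes below). Directions below are therefore given for the libraries as labelled, and all log2 fold changes are knockdown-labelled minus control.

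The libraries differed in other ways along the same line. Totals were 32150086 to 105800769 counts in controls and 13211279 to 13998395 in the knockdown-labelled libraries, so depth and group cannot be told apart. Rod markers, which include arrestin (Sag) and the rod transducin subunit Gnat1, were present in every library, but their sum over 7 genes was 51060 to 66010 CPM in controls and 6577 to 9474 CPM in the knockdown-labelled libraries, and 5 of the 7 passed as lower. Cnga1, in the same list, was not lower, at 1556, 1021 and 1099 CPM in controls against 1677, 1074 and 1493 CPM. Summed microglia and macrophage markers (10 genes, of which 4 of 9 tested passed as lower) stood at 795 to 1075 and 1.80 to 5.76 CPM, and Müller glia markers (7 genes, 0 passed) at 529 to 751 and 137 to 269 CPM. Among the Müller glia markers, Rlbp1, Glul and Apoe lay below every control (15.7% of all tested genes did so). The others overlapped, among them Slc1a3, at 63.3, 100 and 158 CPM in controls against 124, 104 and 130 CPM. Vascular and blood markers (8 genes, of which 3 of 5 tested passed as lower, Hba-a1 at 0 in all knockdown-labelled libraries and Cdh5 at 0 in all controls) stood at 165 to 302 and 20.5 to 65.9 CPM. Of these, Rgs5, Hbb-bs and Hba-a1 lay below every control (15.7% of all tested genes did so). Pdgfrb, at 0.204 CPM or less, lay above (12.6%). Most of the knockdown-labelled sum was Kdr, which overlapped, at 9.74, 26.8 and 14.5 CPM in controls against 18.1, 56.5 and 62.0 CPM. Pigment epithelium markers (8 genes, of which 1 of 2 tested passed as lower, Best1 and Krt8 at 0 in all knockdown-labelled libraries, Pmel at 0 in all controls) stood at 213 to 215 and 1.02 to 2.43 CPM. Most of the control sum was Krt18, at 206, 124 and 143 CPM. Rpe65, Best1 and Pmel stood at 0.0654 CPM or less in every library of both groups. Krt18 and Ttr lay below every control (15.7% of all tested genes did so), and Tyr, at 0.340, 2.20 and 0.458 CPM, lay above (12.6%). Among bipolar markers, Grm6, Trpm1 and Prkca lay above every control in all knockdown-labelled libraries (12.6% of all tested genes did so). Otx2 lay below every control (15.7%), so the bipolar sum mixes directions. Cone (6 genes, 0 passed), bipolar (7 genes, 1 passed as higher) and dividing progenitor sums (10 genes, 0 of 5 tested passed) had ranges that overlapped: 2859 to 4782 against 2299 to 3009 CPM, 1028 to 1716 against 779 to 1294 CPM, and 146 to 235 against 148 to 254 CPM. So did the amacrine and ganglion cell markers (8 genes, 0 of 3 tested passed, 9.97 to 78.1 against 14.7 to 66.9 CPM) and the fibroblast and epithelial markers (7 genes, 0 of 1 tested passed, Krt5 at 0 in all knockdown-labelled libraries and Krt14 in all controls, 1.62 to 3.37 against 0.408 to 13.3 CPM). Their part in the values below was not tested, and in such bulk samples fewer cells of a type and less RNA per cell cannot be told apart.

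The sequences that bear on the findings are those of Lmna, whose annotated forms were counted differently between libraries, and the motif matches in the start regions of the 8 genes. Lmna lies on the minus strand of chromosome 3 (ENSMUSG00000028063, 88480147 to 88509956, GRCm38). Its lamin A and lamin C messages share a start region and differ in how the coding sequence ends, while a shorter coding form, Lmna-202, starts inside the gene and ends like lamin C. The last 30 coding bases of the lamin A form (Lmna-201), the lamin C form (Lmna-203) and the internal-start form, with the stop codon in capitals, read 5′ to 3′:

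Lmna-201, coding end at 88482074: cagagctcccagaactgcagcatcatgTAA

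Lmna-203, coding end at 88483297: caccaccgtgtgagtggcagccgccgcTGA

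Lmna-202, coding end at 88483297: caccaccgtgtgagtggcagccgccgcTGA

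The ends of Lmna-202 and Lmna-203 are the same letters, so reads within this end fit either form. The 250 bases before the RefSeq start of the main messages, and the 250 bases before the internal start, are printed from RefSeq (GRCm38.p6) because these are the start regions between which the forms choose:

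Lmna main start, chr3:88503353-88503602, minus strand: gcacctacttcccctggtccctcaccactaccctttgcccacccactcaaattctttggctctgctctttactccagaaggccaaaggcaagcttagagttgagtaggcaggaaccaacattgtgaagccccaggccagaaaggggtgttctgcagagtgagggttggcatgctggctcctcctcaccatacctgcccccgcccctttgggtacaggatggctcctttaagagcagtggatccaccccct

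Lmna internal start, chr3:88493313-88493562, minus strand: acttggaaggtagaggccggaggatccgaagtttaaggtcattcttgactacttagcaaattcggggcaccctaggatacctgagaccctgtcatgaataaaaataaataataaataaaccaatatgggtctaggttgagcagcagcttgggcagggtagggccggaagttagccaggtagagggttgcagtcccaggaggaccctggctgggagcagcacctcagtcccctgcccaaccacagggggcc

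RefSeq windows of 300 bases (250 before to 50 after a start) were held for 7 of the 8 genes, 11 windows in all. They were searched on both strands for the AP-1 site TGACTCA, the element bound by dimers that contain Jun, the CRE-type site TGACGTCA, the MAF site TGCTGAC, of the kind bound by the rod factor Nrl, and the CRX-type site TAATCC, of the kind bound by the photoreceptor factor Crx. The last 4 letters of the MAF site are the first 4 of the AP-1 and CRE-type sites, so matches to these could overlap. The AP-1 site was in 1 of the 11 windows, that of the main start of Lmna, and in 5.2% of 32851 windows of all genes. The CRX-type site was in 1 of the 11, that of Cbx1, and in 7.06% of all windows. The CRE-type and MAF sites were in 0 of the 11 (1.79% and 4.67% of all windows). The matches, in capitals within their surroundings, lie 40 bases after the Lmna start and 38 bases before the Cbx1 start:

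Lmna, chr3:88503303-88503323, minus strand: tggctgtcagTGACTCAgtgt

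Cbx1, chr11:96789087-96789112, plus strand: ggccgactctTAATCCcaaggtgccc

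A match is a string of letters in a window and says nothing about binding.

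Of the 7 genes tested, 0 passed the threshold of an adjusted p of 0.05, where 1.67% of the 12815 genes tested did (214 genes, 41 or 0.32% higher and 173 or 1.35% lower). At an unadjusted p under 0.05 there was 1 of 7, Lmnb2, against 16.8% of all tested genes. DESeq2 called 0 of 8, against 12.1% of all genes it tested, and had 3 of 8 at an unadjusted p under 0.05 (Lmna, H1f0 and Lmnb2), against 25.3%. In limma-voom 0 of 7 were called, against 3.45% of all genes, and 0 of 7 had an unadjusted p under 0.05, against 21.1%. Fitted log2 fold changes were negative for 5 (52.1% of all tested genes) and positive for 2 of the 7, with a median of -0.62 beside -0.12 for all tested genes. In TMM-normalised CPM, Lmna, Cbx1 and H1f0 did not overlap between the groups and were lower in all 3 knockdown-labelled libraries (15.7% of tested genes did so). Lmnb2 did not overlap and was higher (12.6%), and Lbr, Cbx3 and Cbx5 overlapped. Per transcript length, the other scale used below, Cbx1 and H1f0 overlapped as well, while Lmna and Lmnb2 did not. The shares in parentheses are the background against which these counts stand.

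**Figure D1:**
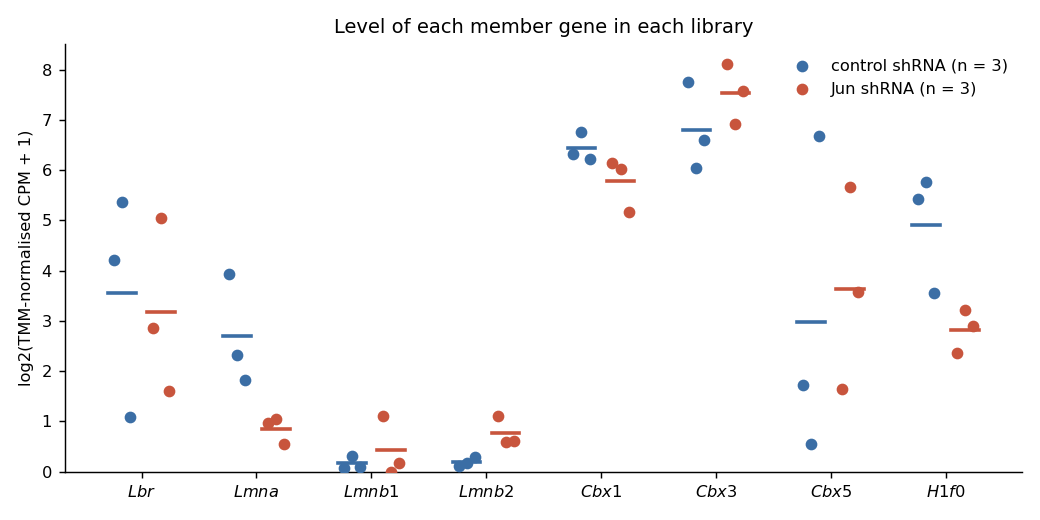
Level of the 8 genes in each library as log2(TMM-normalised CPM + 1) on the vertical axis, with 1 point per library (control 1 to 3, then knockdown-labelled 1 to 3, from left to right in each colour) and a bar at the mean of these log2 values. The points of Lmna, Lmnb2, Cbx1 and H1f0 separate by group, while the points of Lbr and Cbx5 are spread widely within each colour.

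Per transcript length, the scale on which genes can be compared, Cbx3 and Cbx1 were the most abundant of the 8 in the mean over the 6 libraries and the B-type lamins the least. In approximate TPM (transcript counts divided by annotated length and scaled to the same sum in each library), Cbx3 stood at 86.5 ± 53.0 in controls and 169 ± 42.4 in the knockdown-labelled libraries (SD, n = 3 each). Cbx1 stood at 54.3 ± 14.3 and 48.0 ± 19.0 TPM. These neighbours in the order overlapped within controls, where control 2 had more Cbx1 (70.8 TPM) than Cbx3 (51.0 TPM). H1f0 (21.8 ± 14.6 and 5.05 ± 2.28 TPM), Lbr (13.3 ± 14.5 and 11.6 ± 16.6 TPM) and Cbx5 (7.18 ± 11.9 and 6.18 ± 8.17 TPM) followed in the mean over the 6 libraries. The gaps between neighbours were smaller than the SDs of Lbr. In the knockdown-labelled libraries H1f0 had the lowest mean of these genes. Lmna was at 2.67 ± 2.24 and 0.469 ± 0.230 TPM. Lmnb2 (0.0572 ± 0.0283 and 0.378 ± 0.164 TPM) and Lmnb1 (0.0518 ± 0.0449 and 0.249 ± 0.379 TPM) did not differ from each other beyond their spread. This order is that of means over libraries: Lmna lay above Cbx5 in controls 1 and 2 and in knockdown-labelled library 1, and above Lbr in control 3. In knockdown-labelled library 1, Lmnb1 (0.686 TPM) and Lmnb2 (0.565 TPM) both lay above Lmna (0.496 TPM) and Cbx5 (0.282 TPM). Lmnb2 (0.255 TPM) also lay above Lmna (0.226 TPM) in knockdown-labelled library 3.

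Lmna encodes lamins A and C, the intermediate filament proteins that line the inner nuclear membrane in most differentiated cells. It stood at 14.3, 4.02 and 2.56 CPM in controls 1 to 3 and at 0.953, 1.07 and 0.458 CPM in the knockdown-labelled libraries. The highest knockdown-labelled library lay below the lowest control, and control 1 lay well above the other 2 controls. This gave a log2 fold change of -3.07 (SE 1.48, 95% interval -6.42 to 0.28, adjusted p = 0.332 in edgeR), so the difference did not pass. It rests on 522, 362 and 71 counts in controls against 14, 19 and 7, and it was -2.02 without control 1 and -1.88 in limma-trend with a pseudocount of 2. The value with the smallest adjusted p over 19 alternatives was that of DESeq2, at 0.0683, so none passed.

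The annotated forms behind Lmna differed between libraries. The transcript table assigned 0 counts in every library to Lmna-201 and Lmna-203, the full-length lamin A and lamin C forms. All of their 31-base words also occur in other Lmna forms, so a count of 0 does not show that they are absent. The internal-start form Lmna-202, in which 4.91% of such words are its own, received 225 counts in control 1, 91 in control 2 and 0 in control 3. It received 0 counts in each knockdown-labelled library as well. There the 20, 27 and 10 Lmna transcript counts of libraries 1 to 3 allow shares of up to 16.1%, 12.5% and 27.8% (upper Wilson limits). The 97 counts of control 3 allow up to 3.81%. These limits cover counting error only, and not how reads were split between forms that share words. The remaining counts went to the retained-intron form Lmna-205 (chromosome 3, 88480147 to 88484607), a stretch at the end of the gene: 67, 229 and 97 in controls and 20, 27 and 10 in the others. That form held 22.9%, 71.5% and 100% of Lmna transcript counts in controls 1 to 3 and 100% in each knockdown-labelled library. Its level did not overlap between the groups either and was lower in the knockdown-labelled libraries, as for 17.6% of the 20706 transcripts tested. It did not pass (log2 fold change -1.41, SE 1.19, adjusted p = 0.654 in edgeR). Coding Lmna counts were thus seen in 2 of the 6 libraries only, both deeper than the other 4, and the part of depth was not tested. In all protein-coding genes, retained-intron forms took 3.23 ± 0.405% of counts in controls and 8.49 ± 0.989% in the knockdown-labelled libraries (SD, n = 3 each, two-sided exact permutation p = 0.1, the smallest that 3 against 3 can give).

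The B-type lamins were near the limit of detection. Lmnb2 (ENSMUSG00000062075, chromosome 10, 80901203 to 80918245) encodes lamin B2. It had 3, 12 and 6 counts in controls and 17, 9 and 8 in the knockdown-labelled libraries, which is 0.0823, 0.133 and 0.216 CPM against 1.16, 0.508 and 0.523 CPM. Every knockdown-labelled library lay above every control. The fitted difference was 2.32 on the log2 scale (SE 0.96, 95% interval 0.16 to 4.49), but it did not pass (adjusted p = 0.267 in edgeR). It was 1.13 and 0.50 in limma-trend with pseudocounts of 0.5 and 2, which shrink the values of low genes. A level of 3 counts corresponds to 0.0330 to 0.107 CPM in the controls and 0.167 to 0.202 CPM in the others, so the controls of Lmnb2 lie close to that floor. Lmnb1 (ENSMUSG00000024590, chromosome 18, 56707813 to 56753424), which encodes lamin B1, had 2, 22 and 2 counts in controls and 17, 0 and 2 in the others. It was not tested by edgeR, and its groups overlapped.

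Lamins were compared with each other inside each library, which does not depend on the scaling between libraries. Lmna held 99.2%, 91.3% and 89.8% of the counts of the 3 lamin genes in controls 1 to 3 and 28.9%, 66.8% and 40.8% in the knockdown-labelled libraries. The means were 93.4 ± 5.02% and 45.5 ± 19.4% (SD, n = 3 each), and the groups did not overlap. The two-sided exact permutation p was 0.1, the smallest possible, and 0.5 after adjustment over the 5 such measures computed. The knockdown-labelled shares rest on 48, 28 and 17 lamin counts, with 95% Wilson intervals of 18.2% to 43.2%, 49.3% to 82.1% and 21.6% to 64.0%, which cover counting error only.

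**Figure D2:**
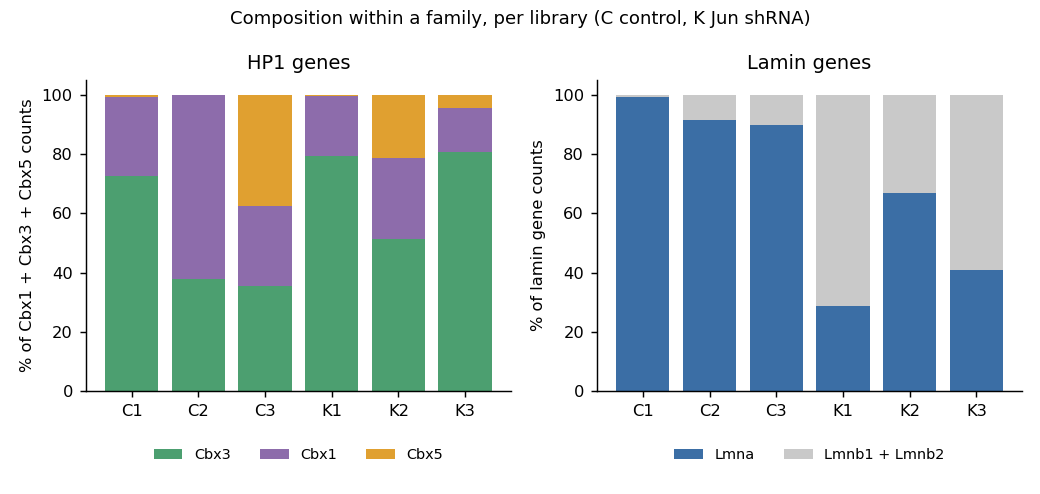
Share of each HP1 gene in the summed counts of Cbx1, Cbx3 and Cbx5 (left, %) and share of Lmna and of Lmnb1 plus Lmnb2 in the summed lamin counts (right, %), with 1 bar per library (C1 to C3 controls, K1 to K3 knockdown-labelled). Lmna takes 89.8% or more of lamin counts in each control and at most 66.8% in the others, and Cbx5 takes 37.4% of HP1 counts in control 3 and under 1% in controls 1 and 2.

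Lbr (ENSMUSG00000004880, chromosome 1, 181815335 to 181843046) encodes the lamin B receptor, a membrane protein that ties heterochromatin to the lamina and also acts as a sterol reductase. It stood at 17.4, 40.1 and 1.12 CPM in controls and 6.26, 32.1 and 2.03 CPM in the knockdown-labelled libraries. Each group held 1 library with over 30 CPM and 1 with under 3 CPM, and the groups overlapped. Between the groups the log2 fold change came to -0.54 (SE 1.63, 95% interval -4.23 to 3.15, adjusted p = 0.893 in edgeR). Its sign turned without control 2 (0.58) and with scaling by library totals (0.09), and it was -2.20 without knockdown-labelled library 2. Controls spanned 35.9-fold from highest to lowest, and on the log2(CPM + 1) scale 12.8% of all tested genes had a wider range among controls. Of its 31-base words 9.4% occur in other genes, first in Dnah14, which overlaps Lbr on the opposite strand and had 7 to 65 counts, and no strand marking is stated in the labels.

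The high Lbr values in the 2 groups came from different annotated forms. The full-length coding form Lbr-201 had 1087, 6791 and 8 transcript counts in controls and 21, 8 and 3 in the knockdown-labelled libraries. It held 99.7% of Lbr transcript counts in control 1, 99.98% in control 2, and 1.05% in knockdown-labelled library 2. That library instead had 791 counts, 97.6% of its Lbr total, on the retained-intron form Lbr-203 (chromosome 1, 181815356 to 181820542, the 3′ end of the gene). Lbr-203 had 1 count in control 3 and 0 in the other libraries. Lbr-201 had a log2 fold change of -6.02 (SE 2.25), which did not pass (adjusted p = 0.240 in edgeR), and its groups overlapped, since control 3 lay with the knockdown-labelled libraries. Without control 2 it was -4.72, without control 3 -6.67, and with a replicate block -4.51. It was the only one of 10 tested transcripts of these genes with an unadjusted p under 0.05, against 15.5% of all tested transcripts, and 0 passed, against 0.662%.

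**Figure D3:**
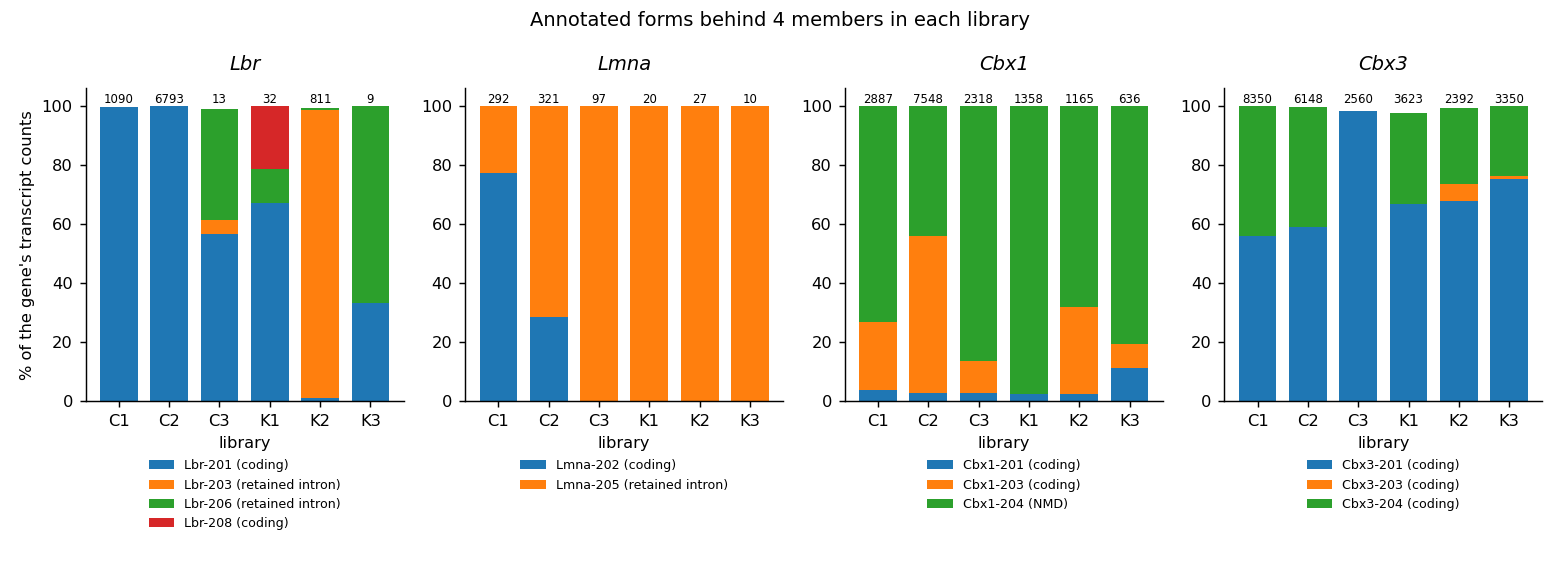
Share of each annotated form in the transcript counts of Lbr, Lmna, Cbx1 and Cbx3 (%), with 1 bar per library (C1 to C3 controls, K1 to K3 knockdown-labelled), the number of transcript counts above each bar, and forms under 5% in every library left out. Retained-intron Lbr-203 fills K2, coding Lmna-202 appears in C1 and C2, and the decay-targeted form Cbx1-204 is present in every library.

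Set against each other, the 2 tethers gave 1.22, 9.97 and 0.44 Lbr counts per Lmna count in controls and 6.58, 30.2 and 4.39 in the knockdown-labelled libraries. The mean ratios were 3.87 ± 5.29 and 13.7 ± 14.3 (SD, n = 3 each). The ranges overlapped through control 2, and the two-sided exact permutation p was 0.4 (0.5 adjusted over the 5 measures). The difference between these means, 9.85, was 1.61 without knockdown-labelled library 2.

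Over the 6 libraries, the tested genes of at least 10 CPM on average whose log2 CPM followed Lbr most closely were Haus2 (Pearson r 0.994), Gpbp1l1 (0.989) and Zfp870 (0.985), among 7401 candidates. Haus2, for example, stood at 42.2, 103 and 0.324 CPM in controls and 10.0, 112 and 0.720 CPM in the others, with the same low libraries as Lbr. The genes most like Lmna were Dnajc8 (0.994), Cox5a (0.988) and Cenpt (0.983), among 7402 candidates. These correlations are the highest among many candidates over 6 points that share library and depth, and are given as a description.

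The HP1 genes encode the 3 proteins that read methylated lysine 9 of histone H3. Cbx1 (ENSMUSG00000018666, chromosome 11, 96789127 to 96808640) encodes HP1 beta. It stood at 78.5, 107 and 73.7 CPM in controls and 69.4, 64.0 and 34.8 CPM in the knockdown-labelled libraries. All 3 of the latter lay below the lowest control, by a narrow margin for library 1. Per transcript length the groups overlapped, at 47.3, 70.8 and 45.0 TPM in controls against 56.1, 61.6 and 26.2 TPM. The log2 fold change of -0.62 (SE 0.75, 95% interval -2.32 to 1.07) did not pass (adjusted p = 0.712 in edgeR), and it shrank to -0.11 with library totals. Cbx1 was also the steadiest of the 7 tested genes among controls in fold terms, at 1.45-fold from highest to lowest.

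Most Cbx1 transcript counts outside control 2 were on Cbx1-204, a form annotated as a target of nonsense-mediated decay. It had 2118, 3330 and 2002 counts in controls and 1327, 794 and 512 in the others, or 73.4%, 44.1% and 86.4% against 97.7%, 68.1% and 80.6% of Cbx1 transcript counts. Of its 31-base words 60.1% are found in no other Cbx1 form. The coding form Cbx1-203 had 664, 4002 and 255 counts in controls and 0, 343 and 53 in the knockdown-labelled libraries, with overlap (log2 fold change -1.98, SE 2.11, adjusted p = 0.729 in edgeR).

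Cbx3 (ENSMUSG00000029836, chromosome 6, 51470360 to 51483704) encodes HP1 gamma, which is found in open as well as closed chromatin. It stood at 214, 65.1 and 96.2 CPM in controls and 274, 120 and 191 CPM in the knockdown-labelled libraries. The groups overlapped, since control 1 lay above 2 of the knockdown-labelled libraries. Its log2 fold change of 0.64 (SE 0.64, 95% interval -0.80 to 2.08, adjusted p = 0.645 in edgeR) did not pass, and it ranged from 0.28 without knockdown-labelled library 1 to 1.24 without control 1. Its leading form, Cbx3-201, had 4662, 3625 and 2515 counts in controls and 2422, 1618 and 2523 in the others (log2 fold change 0.45, SE 0.68, adjusted p = 0.813 in edgeR). Of its 31-base words 10% also occur in other genes, among them its pseudogenes, between which reads could be split.

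Cbx5 (ENSMUSG00000009575, chromosome 15, 103191544 to 103239816) encodes HP1 alpha, the form most tied to condensed chromatin. It stood at 2.30, 0.455 and 102 CPM in controls and 2.11, 49.8 and 10.9 CPM in the knockdown-labelled libraries. Control 3 was 223-fold above control 2, and on the log2(CPM + 1) scale only 1.65% of tested genes had a wider range among controls. The log2 fold change of -0.73 (SE 1.89, 95% interval -5.01 to 3.55, adjusted p = 0.872 in edgeR) rests on control 3: without it the value was 3.96. It was also positive in limma-voom (1.75), in limma-trend (0.49 to 0.77) and with a replicate block (0.29), so no direction can be given. Most Cbx5 transcript counts were on the form Cbx5-202, with 138, 64 and 4417 in controls and 2, 1019 and 274 in the others. Knockdown-labelled library 2 also had 47 on Cbx5-203, and library 1 had 1 on Cbx5-204. In library 1 these few transcript counts stand beside 31 gene counts.

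Within the HP1 genes, the Cbx5 share was 0.785%, 0.264% and 37.4% in controls and 0.620%, 21.3% and 4.62% in the knockdown-labelled libraries (two-sided exact permutation p = 0.9, adjusted over 5 measures 0.9, n = 3 each). The Cbx3 share was 72.6%, 37.8% and 35.4% against 79.3%, 51.3% and 80.6% (exact permutation p = 0.2, adjusted 0.5). The Cbx1 share was 26.7%, 62.0% and 27.1% against 20.1%, 27.4% and 14.7% (exact permutation p = 0.3, adjusted 0.5). These shares of counts also carry gene length. Per transcript length Cbx3 held the largest share in 5 libraries, Cbx1 did in control 2 (58.1%), and Cbx5 held 16.5% in control 3, the smallest of the 3 there. In percentage points the difference in the Cbx5 share of counts, -3.96, turned to 8.33 without control 3 and to 0.15 without knockdown-labelled library 1, and it was -9.98 to -10.2 without control 1, control 2 or knockdown-labelled library 2 and -1.85 without knockdown-labelled library 3. For the Cbx1 share it went from -17.9 to -6.16 without control 2, and for the Cbx3 share from 21.8 to 33.8 without control 1.

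H1f0 (ENSMUSG00000096210, chromosome 15, 79028450 to 79030504) is a gene with 1 exon that encodes the linker histone H1.0, which accumulates in cells that have left the cycle. It stood at 41.8, 53.3 and 10.8 CPM in controls and 4.15, 8.23 and 6.48 CPM in the knockdown-labelled libraries. On this scale the groups did not overlap, and control 3 lay nearer to the knockdown-labelled libraries than to the other controls. Per transcript length they overlapped, since knockdown-labelled library 2 (7.55 TPM) lay above control 3 (6.15 TPM). A log2 fold change of -2.49 (SE 1.29, 95% interval -5.40 to 0.43) did not pass (adjusted p = 0.363 in edgeR). Over 19 alternatives it stayed between -2.92 and -1.95, with adjusted p from 0.108 to 0.588. A gene antisense to it, Gm49544, shares 6.57% of its words and had 1 count in all.

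**Figure D4:**
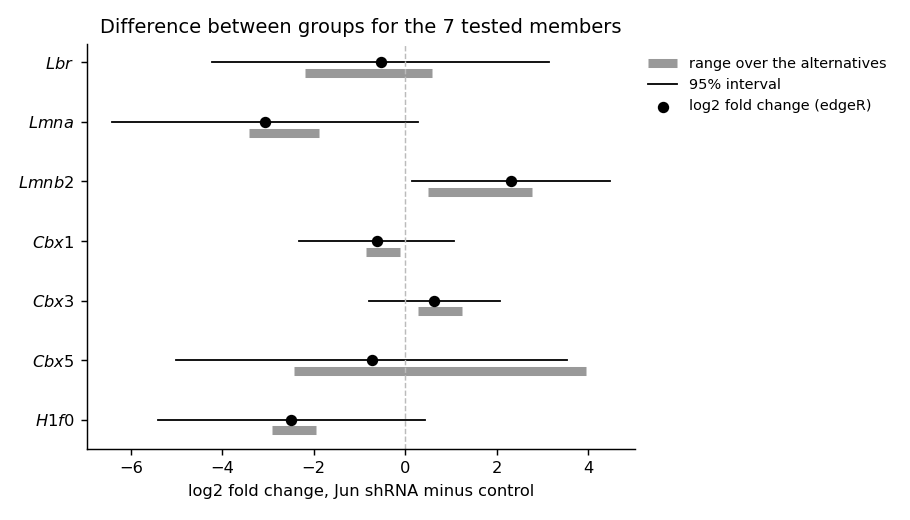
Log2 fold change of the 7 tested genes, knockdown-labelled minus control, on the horizontal axis, with the edgeR value as a point, its 95% interval as a thin line, and the range over the 14 (Lmnb2) or 19 alternatives as a grey bar below it. The intervals of all but Lmnb2 include 0, and the grey bars of Lbr and Cbx5 cross 0.

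Other genes of the nuclear envelope were read from the same fit. Of 16 tested genes of the envelope and of the LINC complex, which links the nucleus to the cytoskeleton, 0 passed, 10 had negative and 6 positive values, and the median was -0.76. In 5 of the 16 the groups did not overlap and were lower (15.7% of all tested genes), and in 0 they were higher. Nrm, which encodes nurim, a protein of the inner nuclear membrane, stood at 120, 191 and 147 CPM in controls and 1.77, 12.5 and 4.84 CPM in the knockdown-labelled libraries. The highest of the latter lay far below the lowest control, with a log2 fold change of -4.58 (SE 1.00, adjusted p = 0.0564 in edgeR). It passed in 4 of 19 alternatives: without a low-count filter, in DESeq2, and in limma-trend with the filter at either pseudocount. Emd, which encodes the lamin-binding protein emerin, stood at 57.4, 11.5 and 26.9 against 5.04, 0.169 and 4.45 CPM (-3.31, SE 1.62, adjusted p = 0.337 in edgeR). The torsin ATPase gene Tor1a (-3.52, SE 1.60) and its cofactor gene Tor1aip1 (-2.44, SE 1.35) completed the 4 with the smallest p, and neither passed. In all 4, as in Lmna, the groups did not overlap, but they were named for their small p, and the list as a whole held values in both directions.

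Of 21 tested heterochromatin writers and readers, 0 passed, 8 had negative and 13 positive values, and the median was 0.35. The groups did not overlap in 2, both higher (12.6% of all tested genes). Dnmt1, the maintenance DNA methyltransferase, stood at 4.66, 6.13 and 16.2 CPM in controls and 119, 37.6 and 28.4 CPM in the others. Every knockdown-labelled library lay above every control, and the difference did not pass (2.78, SE 1.19, adjusted p = 0.284 in edgeR). Cbx6, a Polycomb protein gene, had its high value in 1 library only, at 178 CPM in knockdown-labelled library 3 against 0.677 to 9.46 CPM in the other five. Suv39h1, an H3K9 methyltransferase gene, and Setdb2 stood at -2.95 (SE 1.55) and 1.44 (SE 0.80) on the log2 scale, with overlap.

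Of the other linker histone genes 6 were in the table and 3 were tested, 0 of which passed. Hist1h1e had 306, 83 and 163 counts in controls (8.39, 0.922 and 5.87 CPM) and 0 in every knockdown-labelled library. Against a floor of 3 counts over that whole group (0.062 CPM) its mean control level was at least 81.4-fold higher. The floors of single libraries there were higher, at 0.167 to 0.202 CPM, and control 2 lay nearest to them. Hist1h1e did not pass in edgeR (adjusted p = 0.0861). Hist1h1c, the highest of the 3 in CPM, stood at 170, 104 and 78.1 against 32.1, 9.81 and 98.2 CPM, with overlap (-1.33, SE 0.94). Hist1h1d had 1, 80 and 5 counts in controls and 44, 34 and 3 in the others (2.19, SE 1.48). The list median, -1.33, was the same with Hist1h1e at its bound.

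**Figure D5:**
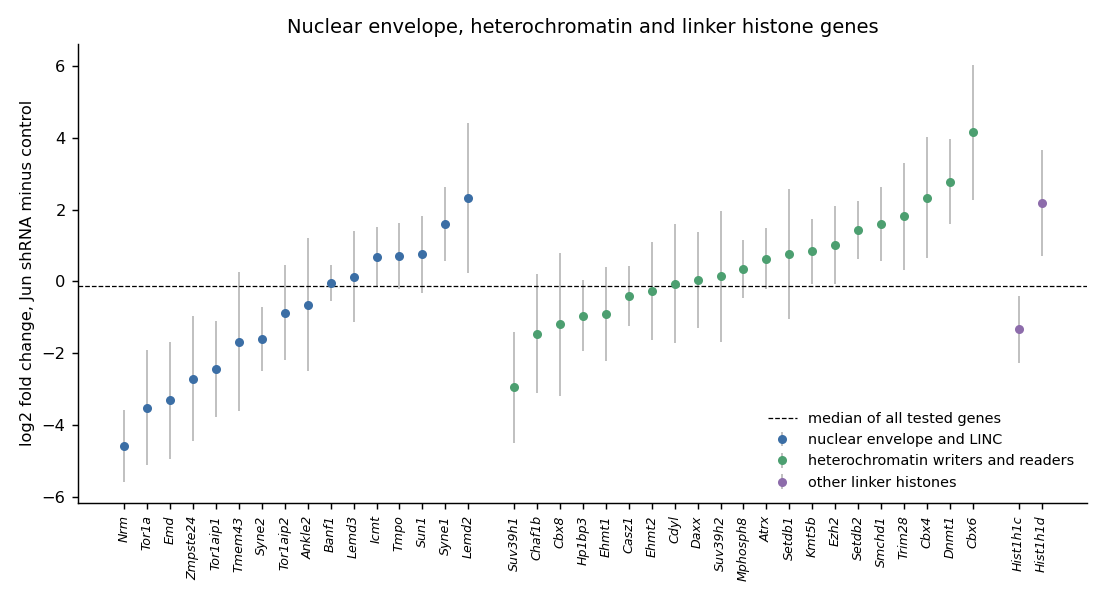
Log2 fold change, knockdown-labelled minus control, of the 39 tested envelope, heterochromatin and linker histone genes with counts in both groups (Hist1h1e is left out), on the vertical axis, with SE as bars. The dashed line is the median of all tested genes, -0.12, and no gene shown passed the threshold in edgeR.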

How the data were processed

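Full-length cDNA of the sorted cells was made with a SMART-seq low-input kit and sequenced as Nextera XT libraries, per the labels' protocols. The submitters' processing notes list the tools kallisto 0.44.0, Trimmomatic 0.39 and edgeR 3.28.1 but no roles, and the build is one not given in the sources used here. Deposited by the authors were estimated counts per gene and per transcript, which are not whole numbers and were rounded here, and a normalised gene signal whose columns sum to 1250540 to 2385208 and in which each library's counts are divided by 1 factor. Gene counts are not sums of the transcript counts, so the 2 tables are not on 1 scale. GENCODE vM21 held 51250 of the 52143 gene identifiers, 98.22% of them at the same position, so the coordinates are those of GRCm38; all 39 transcripts of the 8 genes were found.

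Groups and replicate numbers came from the labels. After filterByExpr and TMM scaling, genes were tested by the quasi-likelihood test of edgeR 4.0.16 (R 4.3.3) with group as the only term, with Benjamini-Hochberg adjustment over 12815 genes, or 20706 transcripts, and a threshold of 0.05. The SE is the log2 fold change divided by the root of the F statistic. The 95% interval uses the total degrees of freedom of the fit (9.05), which are the residual ones plus those borrowed from other genes. Approximate TPM are transcript counts per annotated length, known for 98.47% of transcripts. Shares within a library were compared by exact permutation, 3 against 3, and Wilson intervals and the floor of 3 counts cover counting error only, since the reads carry no molecular identifiers. Named were the 8 genes, their most abundant and their called transcripts, the lamin A and C forms, Jun, the 4 genes of each wider list with the smallest p, and the 3 genes most correlated with Lbr and with Lmna, predicted models passed over. The genes, lists and tests were chosen with earlier results of these data known; 771 genes on patch sequences were kept, none of them a copy of the 8. Alternatives were other scalings, filters and thinning, DESeq2 1.42.0, limma 3.58.1 (voom on counts, and trend on the log2 of the deposited signal plus 0.5 or 2), fits without 1 library at a time, and a replicate block. The test functions were checked on simulated data. No column was left out (0). Of the rod marker list, 1 gene is not reported here.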

Additional observations from a re-analysis of the deposited data

How the results depend on the processing

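Of the 6 to 8 of these genes that each of 19 alternatives tested, and of the 9 to 28 of their 39 transcripts that each of 12 alternatives tested, 0 passed the threshold. Lmnb2 was tested in 14 of the 19. Over all genes, 214 passed in the reported fit, 737 without a low-count filter, 1955 in DESeq2, 442 in limma-voom, 615 and 553 in limma-trend with pseudocounts of 0.5 and 2, 95 in limma-trend with 0.5 and no filter, and 36 to 110 when a library was left out (41, 57 and 36 without control 1, 2 or 3). Of the wider lists, 0 genes passed in the reported fit, 1 (Nrm) without a filter and in limma-trend with the filter at either pseudocount, and 4 in DESeq2 (Nrm, Hist1h1e, Kmt5c and Syne4). Scaling by library totals moved the median log2 fold change of all genes by 0.50, by upper quartile by 0.39, by thinning by 0.26 and by median of ratios by 0.15, and the genes called higher went from 41 of 214 to 68 of 147 and 55 of 144 in the first 2.

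Log2 fold changes turned sign for Lbr with library totals (0.091) and over a range of -2.20 to 0.58 when a library was left out. For Cbx5 they turned in limma-voom (1.75), limma-trend (0.77 with a pseudocount of 0.5, with or without the filter, and 0.49 with 2), and ranged from -2.44 to 3.96 when a library was left out. Among transcripts they turned for Cbx1-201 (0.64 with library totals, 0.097 thinned, -0.67 to 0.19 with a library left out), Cbx1-204 (0.51, 0.061, and -0.76 to 0.016), Cbx3-204 (-0.12 without a filter, -0.65 to 1.52 with a library left out) and Cbx5-202 (0.15 in limma-voom, -2.77 to 3.08 with a library left out). The cause was not tested.

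The replicate numbers showed no sign of pairing the samples (correlations of same-numbered deviations 0.0034, 0.035 and -0.0097), though so few libraries cannot exclude a weak pairing. With the replicate number as a block 97 genes passed, 0 of them among the 8, the value of Cbx5 turned to 0.29, and no other sign among the 8 changed. With a library left out, the difference in the Cbx5 share of HP1 counts ran from -10.2 to 8.33 percentage points and changed sign, that in the Cbx1 share from -23.8 to -6.16, in the Cbx3 share from 15.2 to 33.8, in the A-type lamin share from -58.6 to -39.6, and the difference in Lbr counts per Lmna count from 1.61 to 14.5.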
